A study of Homo sapiens with 32 samples.

Results

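The cytosolic ribosomal protein genes were followed in 4 human endometrial cancer cell lines, as the genes whose symbols name a protein of the large (RPL) or small (RPS) ribosomal subunit. Members were chosen by symbol (RPL or RPS and a number, with RPLP0, RPLP1, RPLP2 and RPSA), leaving out RPS27L and RPL22L1, and by a level above 1 CPM (reads per 1000000 counted reads) in at least 2 libraries. Of 83 candidates by name, 81 passed, 50 of the large and 31 of the small subunit, among 35238 genes in the table and 17011 that passed the same filter. RPL10L and RPS10L did not pass. Total RNA depleted of ribosomal RNA was sequenced from Ishikawa, labelled CTNNB1-wildtype (CTNNB1 encodes beta-catenin), and from Ishikawa-S33Y, SNGM and HEC265, labelled CTNNB1-mutated. Each line had 2 vehicle libraries (0.1% DMSO), 2 with paclitaxel, a taxane that stabilises microtubules, 2 with SM08502, an inhibitor of the CDC-like kinases that phosphorylate splicing factors, and 2 with both drugs, called the combination, all after 24 h. Ishikawa received 11 nM paclitaxel and 80 nM SM08502, Ishikawa-S33Y 6 and 85 nM, SNGM 11.7 and 350.7 nM, and HEC265 5.6 and 149 nM, as the labels give them. Ishikawa libraries were made from 350 ng RNA and all others from 500 ng, so dose and input cannot be told apart from the line. The labels name no clone for Ishikawa-S33Y and describe the cells as plated in duplicate, so p-values measure only the spread between these samples, which may be technical.

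Cytosolic ribosomes hold 1 copy of nearly every ribosomal protein, and a growing cell spends a large part of its transcription on their messages. Most of these messages begin with a C and a run of pyrimidines, the terminal oligopyrimidine (TOP) motif, through which growth signalling by mTOR and LARP1 sets their translation and stability together. A few members have close paralogues (RPL22 and RPL22L1, RPL39 and RPL39L, RPS27 and RPS27L), and RPL22 protein is known to hold down the message of RPL22L1. Frameshift mutations in RPL22 recur in endometrial cancers with defective mismatch repair.

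The sequences around the start sites are shown because they carry the feature most members share and the rule did not use. In the RefSeq promoter table (GRCh38.p14), 64 of the 81 members had an entry, with at least 1 listed start. A C exactly at a listed start, followed on the same strand by at least 4 bases that are each C or T, stood in 46 of them (71.9%). The same was found in 5.14% of the 27305 symbols with an entry and in 6.96% of the 11802 fitted genes with one. In the windows below, 15 bases precede the listed start and capitals mark the run that begins at it.
RPL22 (chr1:6199581-6199610, minus strand): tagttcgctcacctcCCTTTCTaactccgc
RPL22L1 (chr3:170870181-170870210, minus strand): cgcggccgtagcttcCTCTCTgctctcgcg
RPS23 (chr5:82278340-82278369, minus strand): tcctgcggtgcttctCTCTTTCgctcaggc
RPS19 (chr19:41860240-41860269, plus strand, 1 of its listed starts): ggaaaccccgtcgttCCCTTTCCCCTggct
RPL10 (chrX:154398362-154398391, plus strand, 1 of its listed starts): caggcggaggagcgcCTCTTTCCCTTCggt
RPS12 (chr6:132814554-132814583, plus strand): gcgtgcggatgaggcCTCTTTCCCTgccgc
RPL39 (chrX:119791616-119791645, minus strand, the run going on past the window): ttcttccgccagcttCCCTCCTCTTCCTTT
RPL26L1 (chr5:172958714-172958743, plus strand, 1 of its listed starts, no run at any): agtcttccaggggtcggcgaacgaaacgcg
RPS27L (chr15:63157463-63157492, minus strand, not a member): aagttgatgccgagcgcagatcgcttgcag
The first 4 and RPL10 belong to the genes on which the drug results turn, RPS12 to the only member that passed the test downwards in the mean over lines, and the last 2 are paralogues whose listed starts lack the run. RPL22 and its paralogue RPL22L1 both carry it, as do RPS23, RPS19 and RPL10, which rose with SM08502, and RPS12, which fell. RPL15 and RPL19, which also rose, have it at none of their 3 and 2 listed starts. At a listed start of RPL19, however, a pyrimidine run begins before the listed base and goes on past it. The rule, which asks for a C exactly at the start, counts such a gene as without the run. The median log2 difference with SM08502 was 0.12 among members with the run and 0.10 among those without, and with the combination 0.18 and 0.15. A match is a description of these letters and not a measured transcription start.

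Depth was 13.026 to 34.128 M reads in 30 libraries (median 21.668 M, M standing for 1000000). Ishikawa-S33Y combination replicate 2 held 2.99 M and SNGM combination replicate 2 held 1.607 M. The epithelial markers EPCAM, KRT8, KRT18, KRT19 and CDH1 were above 60 CPM in every library. Of the Mullerian markers PAX8 was at 64.4 to 514 CPM and HOXA10 at 12.1 to 62.2. HOXA11 (1.12 to 47.4), ESR1 (0 to 64.6) and PAX2 (0 to 51.5) were low or absent in some libraries. Of the immune markers PTPRC was at 0.401 to 2.38 CPM and CD3E at 0 to 0.444, but CD68 at 3.30 to 50.4. Of the stromal markers COL1A1 was at 0 to 1158 CPM, while COL3A1, PDGFRB and DCN reached at most 4.69, 0.890 and 3.73. The endothelial markers PECAM1 and VWF reached 4.31 and 8.35 CPM. Replicates of Ishikawa with a single drug differed most: paclitaxel replicate 1 lay 0.69 (log2) below replicate 2 in the members' median and 1.02 above it in the median of 52 genes with very long mRNAs, and SM08502 replicate 1 lay 0.55 below and 0.45 above. Vehicle replicate 1 lay 0.25 above and 0.17 below replicate 2 in SNGM, and 0.20 above and 0.16 below in Ishikawa. The part of these library differences in the results was not tested, and results resting on Ishikawa are given with and without them.

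Members took 2.56% to 7.11% of all reads of a library. In Ishikawa the shares were 5.45% and 4.82% on vehicle, 4.12% and 6.66% with paclitaxel, 4.78% and 7.11% with SM08502, and 6.07% and 6.47% with the combination. Both combination libraries of Ishikawa lay above both vehicle libraries, while the paclitaxel and the SM08502 libraries each spanned the vehicle ones, and the spread within paclitaxel and within SM08502 was wider than the difference between treatment means. In Ishikawa-S33Y the share was 3.69% and 3.90% on vehicle, 4.22% and 4.07% with SM08502, and 4.70% and 4.01% with the combination. SNGM (2.56% to 3.23%) and HEC265 (2.81% to 3.19%) stayed below the lowest Ishikawa-S33Y value of 3.68% in all 16 of their libraries. In bulk RNA, fewer cells of a kind and less RNA per cell cannot be told apart, and CPM gives a share of the library, not an amount per cell.

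**Figure D1:**
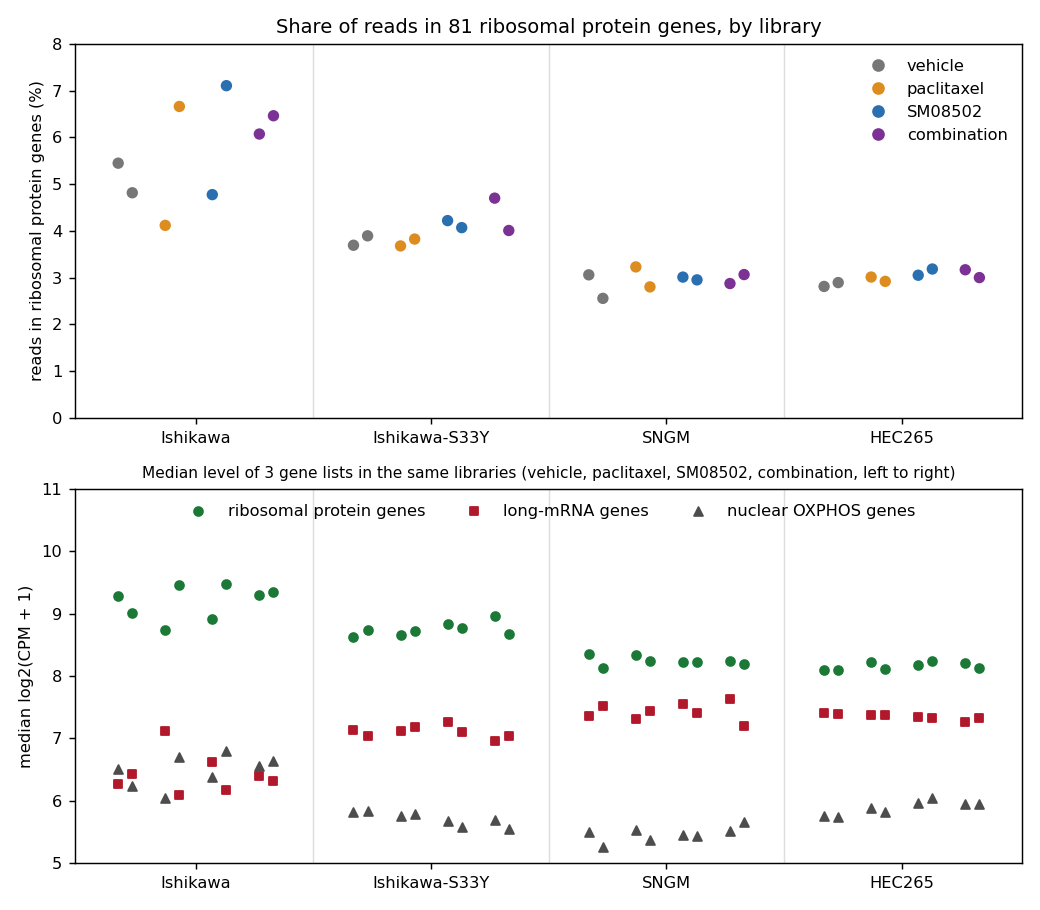
Upper panel, percent of all counted reads in the 81 ribosomal protein genes in each of 32 libraries, by line and treatment; lower panel, the median log2(CPM + 1) of those genes, of 52 genes with very long mRNAs and of 63 nuclear OXPHOS genes in the same libraries. The Ishikawa shares run from 4.12% to 7.11% and lie above those of SNGM and HEC265, and the median of the long-mRNA genes moves against that of the ribosomal protein genes within the Ishikawa replicates.

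With SM08502 the rises past the threshold were in a minority of the family, spread over both subunits. In the mean over the 4 lines, 12 members rose and 1 fell (limma on log2(CPM + 1), Benjamini-Hochberg adjusted p under 0.05 over 17011 genes), against 38.5% of all genes called (22.6% higher and 15.8% lower). Calls were thus a smaller share of the family than of all genes in both directions, a difference that was not tested. The median member differed by 0.12 (log2), against 0.05 over all genes, and without Ishikawa by 0.08 against 0.06. Of the large subunit RPL22, RPL15, RPL27A, RPL10, RPL38, RPL7 and RPL19 rose, by 0.20 to 0.67, and of the small subunit RPS23, RPS19, RPS13 and RPS9 were among those that rose, these by 0.36 to 0.52. The shares of all genes belong to this main fit, and counts under other settings have no background beside them. Without Ishikawa 17 rose and 2 fell, and with limma voom on reads recovered from the values 15 rose and 1 fell. Quantile normalization gave 28 calls, the most under any of 26 alternatives, and the fewest were 9. Leaving out Ishikawa SM08502 replicate 1 alone gave 25 calls. RPS9, RPL38 and RPL19 stood near the threshold: leaving out 1 library, which differed from case to case, took the adjusted p as high as 0.128, 0.146 and 0.0889, while RPL22, RPS23, RPS19, RPL10, RPL15 and RPS13 kept their calls under all 26 alternatives.

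RPL22, an RNA-binding protein of the large subunit, was the member with the largest rise in that mean. On vehicle it lay at 151 and 119 CPM for Ishikawa, 173 and 187 for Ishikawa-S33Y, 153 and 145 for SNGM, and 184 and 193 for HEC265. With SM08502 it lay at 197 and 191, 301 and 314, 242 and 266, and 280 and 300 CPM in the same order of lines. Every SM08502 library was above every vehicle library of its line, and the combination libraries, at 199 to 335 CPM, were too. The rise with SM08502 was 0.67 ± 0.05 (SE, log2) in the mean over lines (limma, adjusted p = 3.17e-09), and 0.53, 0.77, 0.77 and 0.62 for Ishikawa, Ishikawa-S33Y, SNGM and HEC265, each past the threshold. The combination, which shares those vehicle libraries, gave 0.57, 0.87, 0.70 and 0.56, also each past it. In Ishikawa both calls rested on the pooled spread: fitted on that line alone the limma adjusted p was 0.149 for SM08502 and 0.0953 for the combination. Without vehicle replicate 2 the Ishikawa difference with SM08502 was 0.36 (adjusted p = 0.0565).

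RPL22L1, the paralogue that RPL22 protein represses, did not rise with it. Its levels on vehicle were 118 and 98.6 CPM for Ishikawa, 46.6 and 50.3 for Ishikawa-S33Y, 42.8 and 36.3 for SNGM, and 84.7 and 98.0 for HEC265. With SM08502 they were 92.5 and 146, 35.8 and 38.2, 30.4 and 34.8, and 64.0 and 59.3 CPM. In Ishikawa-S33Y, SNGM and HEC265 both SM08502 libraries lay below both vehicle libraries, while in Ishikawa the SM08502 libraries spanned the vehicle ones. The log2 differences were 0.11, -0.38, -0.27 and -0.56, none past the threshold, and the mean over lines was -0.28 ± 0.12 (SE; limma, adjusted p = 0.0755). That mean was -0.40 without Ishikawa (limma, adjusted p = 3.97e-04) and -0.36 without Ishikawa SM08502 replicate 2. These were the only 2 of 26 alternatives in which it passed, and leaving out 1 library took it to as little as -0.19. Measured against the median of the family in the same library it was -0.34 ± 0.09 (SE; limma, adjusted p = 0.0125). The family median was itself higher with SM08502 in the mean over lines, which lowers every gene on this scale. RPL22, for example, went from 0.67 to 0.61.

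The reads of RPL22 per read of RPL22L1, a ratio not corrected for length and so compared only across libraries, showed the pair together. It was 1.28 and 1.21 for Ishikawa vehicle, 3.71 and 3.72 for Ishikawa-S33Y, 3.58 and 3.98 for SNGM, and 2.18 and 1.97 for HEC265. With SM08502 it was 2.13 and 1.31 for Ishikawa, 8.40 and 8.23 for Ishikawa-S33Y, 7.96 and 7.64 for SNGM, and 4.38 and 5.06 for HEC265. In the last 3 lines the 4 libraries with SM08502 all exceeded the 4 without it, with paclitaxel between 2.20 and 4.74. In Ishikawa they did not: paclitaxel replicate 1 stood at 1.68, above SM08502 replicate 2. The table gives 1 value per gene and does not separate spliced forms of either message.

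**Figure D2:**
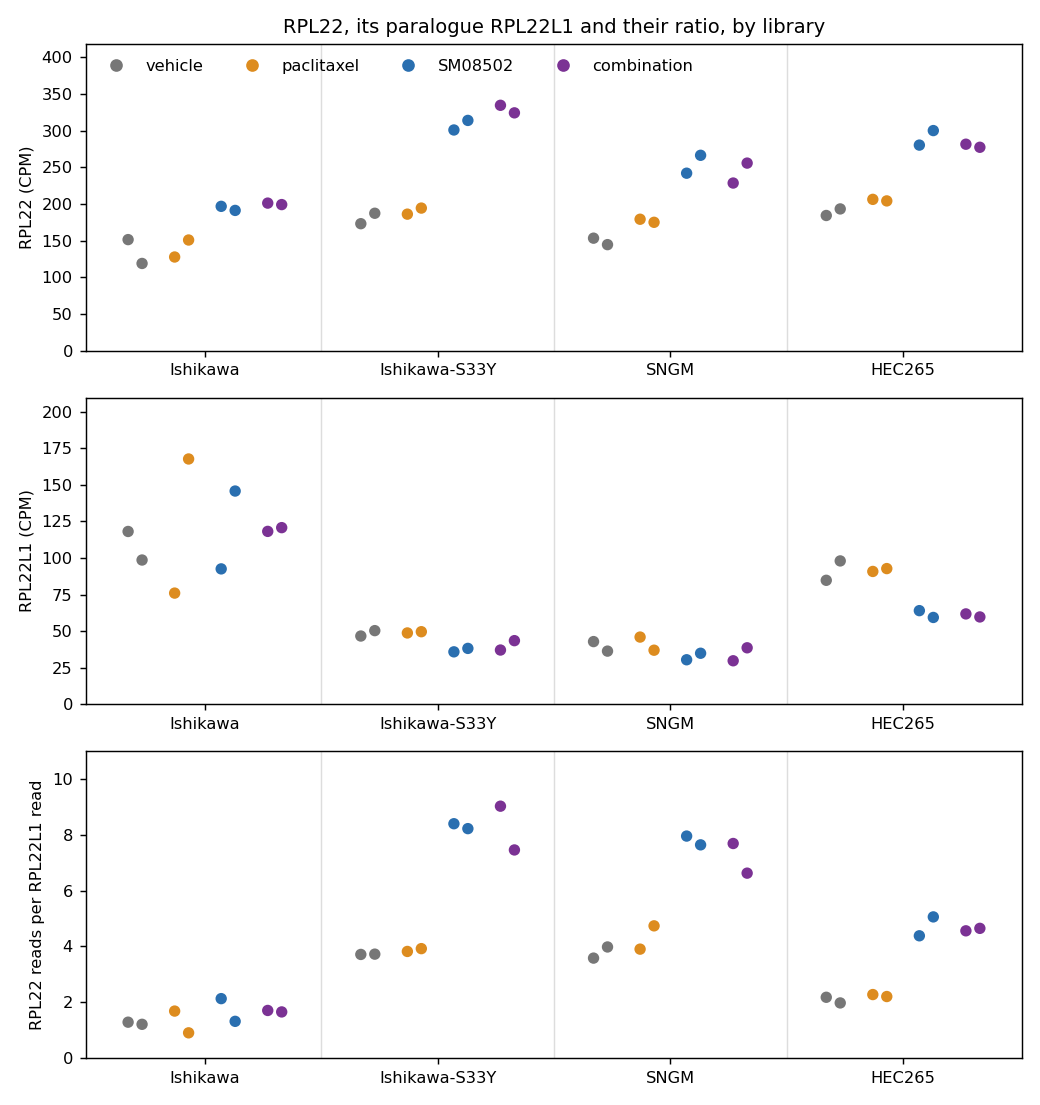
Levels of RPL22 and RPL22L1 (CPM) and the reads of RPL22 per read of RPL22L1 in each library, by line and treatment. SM08502 and combination libraries lie above vehicle for RPL22 in every line, and the ratio goes from 3.71 and 3.72 to 8.40 and 8.23 in Ishikawa-S33Y but overlaps between treatments in Ishikawa.

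RPS23, a protein of the decoding centre, was next in size. It measured 625 and 602 CPM on vehicle and 710 and 831 with SM08502 for Ishikawa, 546 and 551 against 849 and 825 for Ishikawa-S33Y, 420 and 365 against 598 and 582 for SNGM, and 486 and 479 against 709 and 729 for HEC265. SM08502 libraries exceeded vehicle in all 4 lines, although Ishikawa paclitaxel replicate 2, at 720 CPM, exceeded 1 of them. The difference was 0.52 ± 0.08 (SE, log2; limma, adjusted p = 1.80e-05) in the mean over lines and passed in each line but Ishikawa, where it was 0.32 (adjusted p = 0.167). The single-line calls were lost in HEC265 without any 1 of its 4 libraries (adjusted p = 0.0740 to 0.105) and in SNGM without vehicle replicate 2 (0.49, adjusted p = 0.198), SM08502 replicate 1 or SM08502 replicate 2. RPS19, the small-subunit protein most often mutated in Diamond-Blackfan anaemia, rose by 0.41 ± 0.05 (limma, adjusted p = 4.25e-06), from 180 and 181 CPM to 276 and 280 in HEC265 and from 232 and 244 to 330 and 334 in Ishikawa-S33Y. In these lines it passed the test alone, by 0.62 and 0.48, and in Ishikawa (0.24) and SNGM (0.31) it did not. With the combination RPS19 passed in all 4 lines, by 0.33, 0.53, 0.35 and 0.59, though the Ishikawa call was lost without vehicle replicate 2 (0.20, adjusted p = 0.352) or either combination replicate, and the SNGM call without vehicle replicate 2 (0.21, adjusted p = 0.341) or combination replicate 2 (adjusted p = 0.111).

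RPL10, among the last proteins added to the large subunit, rose by 0.32 ± 0.06 (SE, log2; limma, adjusted p = 3.47e-04). It lay at 763 and 785 CPM on vehicle and 817 and 923 with SM08502 in Ishikawa, and at 618 and 616 against 829 and 822 in Ishikawa-S33Y. In SNGM it lay at 572 and 502 against 740 and 741 CPM, and in HEC265 at 295 and 284 against 336 and 343. In the single-line tests RPL10 was not called in Ishikawa or HEC265, where RPL22 was the only large-subunit member that passed with SM08502. RPL10 and RPL22 were the 2 members whose 4 libraries with SM08502, alone or combined, exceeded the 4 without it in every line. Of all genes 2.45% did so, and the count of members was near that background. RPL15, RPL24, RPL29, RPS19 and RPS23 did so in 3 lines. By line, 2, 29, 9 and 30 members did so for Ishikawa, Ishikawa-S33Y, SNGM and HEC265, against 12.0%, 32.3%, 12.0% and 30.4% of all genes. The counts for Ishikawa-S33Y, SNGM and HEC265 were thus near the background. No member was lower in all 4 such libraries in every line, against 1.55% of all genes. By line 0, 3, 3 and 8 members were, against 8.51%, 22.4%, 10.1% and 18.4% of all genes.

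RPS12, a protein of the small subunit, moved the other way. On vehicle it measured 242 and 194 CPM for Ishikawa, 127 and 132 for Ishikawa-S33Y, 90.7 and 74.6 for SNGM, and 98.5 and 108 for HEC265. With SM08502 it measured 147 and 223, 103 and 90.5, 57.0 and 52.5, and 60.5 and 63.5 CPM. The libraries did not overlap in Ishikawa-S33Y, SNGM and HEC265 and overlapped in Ishikawa. The difference was -0.50 ± 0.10 (SE, log2) in the mean over lines (limma, adjusted p = 7.04e-04) and -0.56 ± 0.07 against the family median (adjusted p = 8.26e-06). In single lines it passed in HEC265 (-0.73, adjusted p = 0.0209), a call that ended when any 1 of that line's 4 vehicle or SM08502 libraries was left out (adjusted p = 0.0757 to 0.148). Against the family median 9 members were higher and 3 lower, beside 15.9% of all genes called (6.77% higher and 9.15% lower), so the total was near that background. The median subtracted from every gene was the members' own, so members and other genes are not compared on like terms. Without the subtraction 38.5% of all genes were called. The other 2 lower members were RPS3 (-0.24), at the mRNA entry site, and RPL12 (-0.22), at the base of the stalk. The RPL12 call was lost without any 1 of 13 libraries (adjusted p = 0.0513 to 0.0759) and the RPS3 call without the filter on low values (adjusted p = 0.0839).

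**Figure D3:**
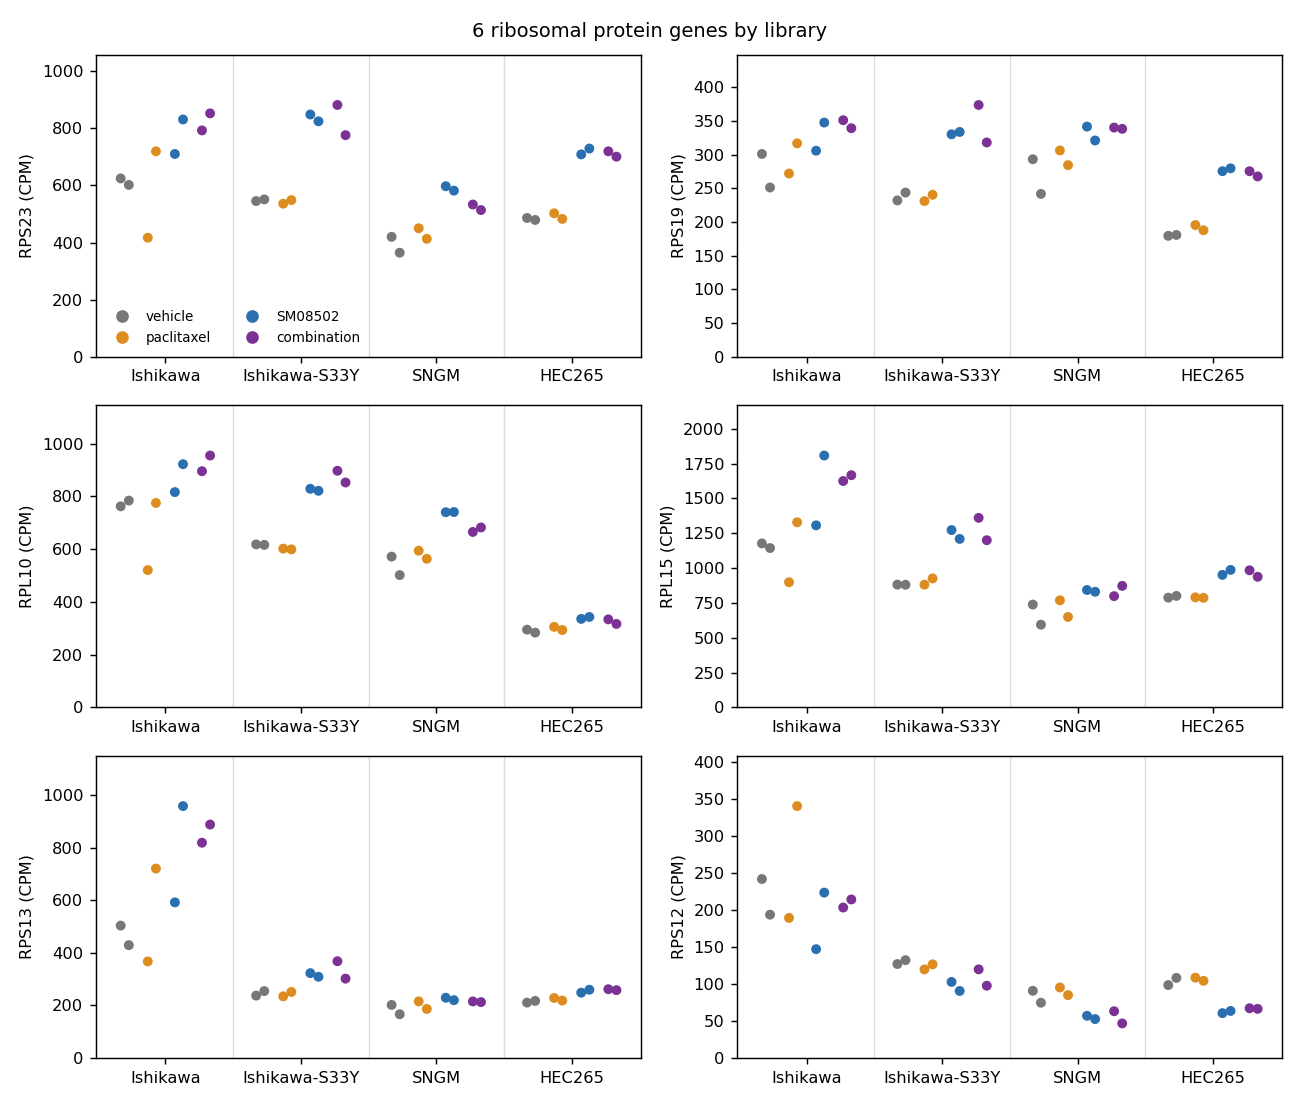
Levels (CPM) of RPS23, RPS19, RPL10, RPL15, RPS13 and RPS12 in each library, by line and treatment. RPS23 lies at 479 to 486 CPM on vehicle and 709 to 729 CPM with SM08502 in HEC265, while RPS12 lies at 98.5 to 108 and 60.5 to 63.5 CPM.

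In single lines the calls were few. SM08502 gave 2 members called for Ishikawa, 7 for Ishikawa-S33Y, 3 for SNGM and 4 for HEC265, all higher but RPS12 for HEC265, against 15.2%, 29.1%, 7.86% and 14.7% of all genes. Of all genes 6.50%, 18.5%, 3.80% and 9.27% were higher in these lines and 8.68%, 10.6%, 4.06% and 5.39% were lower. The median member differed by 0.21, 0.07, 0.06 and 0.14 (log2), against 0.00, 0.11, 0.00 and 0.07 over all genes. In Ishikawa the count was 0 without vehicle replicate 2, 23 without SM08502 replicate 1 and 1 without SM08502 replicate 2. In SNGM it fell to 1 without vehicle replicate 2, SM08502 replicate 1 or SM08502 replicate 2, and in Ishikawa-S33Y and HEC265 it was 4 and 2 whichever library was left out. Fitted on its own samples alone, with its own estimate of the spread, each line gave 0, 18, 1 and 37 calls. The shares of all genes given above belong to the main fit, so these counts have no background beside them. RPS13 was the other member called in Ishikawa, from 503 and 429 CPM on vehicle to 592 and 958 with SM08502 (0.70 ± 0.21, limma adjusted p = 0.0313), and the call was lost without SM08502 replicate 2 (0.35, adjusted p = 0.440), vehicle replicate 1 or vehicle replicate 2. No member passed the test for a response to SM08502 that differed among lines (limma F test, 0 of 81 called and 2 at an unadjusted p under 0.05, against 12.4% of all genes called). The smallest adjusted p were those of RPL39L (0.0631), RPL26L1 (0.0650) and RPS2 (0.220). Leaving out Ishikawa SM08502 replicate 1 gave 3 calls there and leaving out replicate 2 gave 1. With voom RPL39L (adjusted p = 0.0447) and RPL26L1 (adjusted p = 0.0390) passed.

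The combination gave more calls from the same vehicle libraries. In the mean over lines 22 members rose and 1, RPS12 (-0.38), fell, against 49.1% of all genes (29.0% higher and 20.1% lower), with a median of 0.18 (log2) against 0.04, or 0.10 against 0.05 without Ishikawa. By line 6, 9, 3 and 5 members were called for Ishikawa, Ishikawa-S33Y, SNGM and HEC265, against 22.8%, 42.0%, 18.4% and 19.5% of all genes. All were higher but 1 in Ishikawa-S33Y, RPL26L1, and 1 in HEC265, RPS12, while of all genes 11.6%, 24.0%, 10.8% and 12.4% were higher and 11.2%, 18.0%, 7.54% and 7.16% lower. In that mean 14 and 15 were called without Ishikawa vehicle replicate 2 and without SNGM vehicle replicate 2, respectively. The Ishikawa count was 11 without vehicle replicate 1, 1 without vehicle replicate 2 and 2 and 1 without the combination replicates. In SNGM it was 8 without combination replicate 1 and 1 without combination replicate 2.

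RPS9, a protein of the small-subunit body, rose with the combination by 0.76 ± 0.14 (SE, log2; limma, adjusted p = 9.17e-05), beside 0.68 ± 0.05 for RPL22 (adjusted p = 1.69e-09). It measured 53.9 and 54.7 CPM on vehicle and 76.7 and 94.6 with the combination for Ishikawa, 41.0 and 36.1 against 64.4 and 47.1 for Ishikawa-S33Y, 34.5 and 30.5 against 53.7 and 133 for SNGM, and 30.3 and 35.0 against 48.76 and 47.96 for HEC265. Combination libraries were above vehicle in every line. The value of 133 CPM came from the shallowest library, and without it the difference in SNGM went from 1.36 to 0.71 (limma, adjusted p = 0.0569) and the mean over lines to 0.60 (adjusted p = 4.31e-05), below the 0.66 of RPL22 without that library. RPS13 rose in Ishikawa by 0.87 (adjusted p = 0.00591), at 819 and 888 CPM with the combination, above both vehicle libraries, a call lost without vehicle replicate 2 or combination replicate 2.

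Paclitaxel alone changed no member past the threshold in any line or in the mean (limma, 0 of 81, with 1 at an unadjusted p under 0.05 in the mean, in Ishikawa and in SNGM and 0 in the other two lines). Few genes were called at all with paclitaxel, 0.00% in the mean over lines, 0.0118% for Ishikawa, 0.00% for Ishikawa-S33Y, 0.0176% for SNGM and 0.00588% for HEC265. The median member differed by 0.05, -0.02, 0.11 and 0.07 (log2) for Ishikawa, Ishikawa-S33Y, SNGM and HEC265. Without Ishikawa paclitaxel replicate 2, 2 members were called in that line. RPL22 was at 128 and 151 CPM with paclitaxel in Ishikawa and at 179 and 175 in SNGM, a difference of 0.12 ± 0.05 in the mean over lines (limma, unadjusted p = 0.0247, adjusted p = 1.00).

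**Figure D4:**
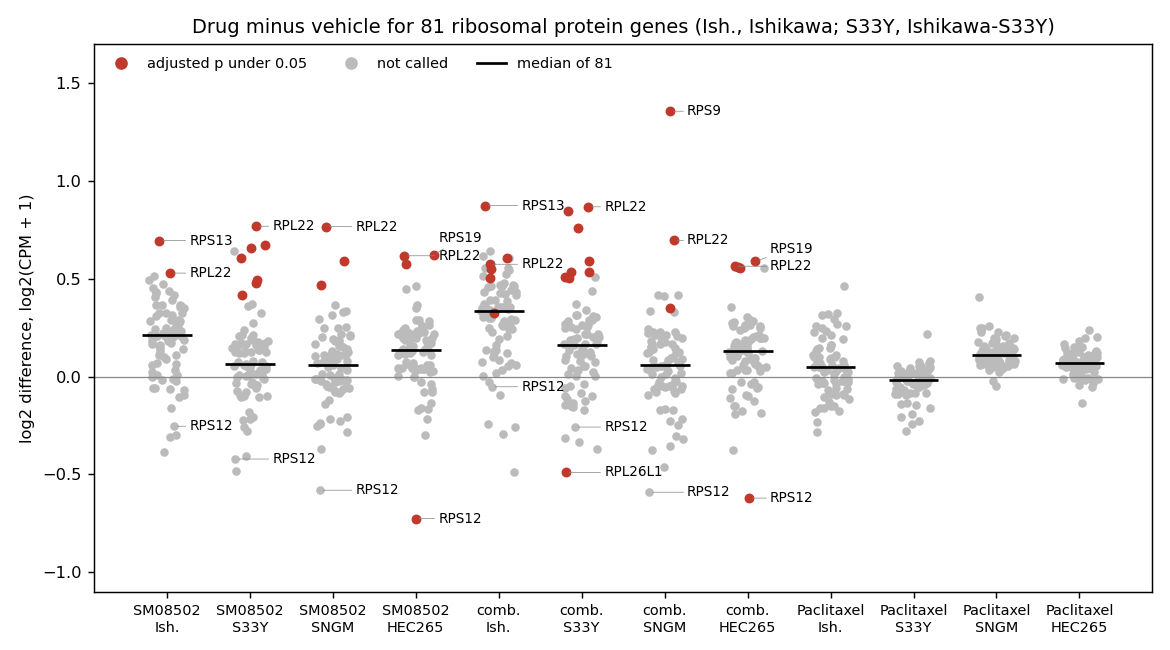
Log2 difference from vehicle, on log2(CPM + 1), for each of the 81 members with SM08502, the combination (comb.) and paclitaxel in each line; red points passed an adjusted p under 0.05, grey points did not, bars are medians. RPL22 is red in all 8 columns with SM08502, RPS9 stands at 1.36 in SNGM with the combination, and no paclitaxel point is red.

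Members with special roles mostly did not pass the test. In the stalk that recruits elongation factors, RPLP0, RPLP1 and RPLP2 differed by 0.18, 0.01 and 0.02 (log2) with SM08502 and by 0.25, 0.16 and 0.20 with the combination, of which RPLP0 (limma, adjusted p = 0.0382) and RPLP2 (adjusted p = 0.0466) passed. Both calls were lost without any 1 of most libraries, as without SNGM vehicle replicate 2 for RPLP0 (0.19, adjusted p = 0.114) and without Ishikawa vehicle replicate 2 for RPLP2 (0.13, adjusted p = 0.165). RPL5 and RPL11, which with 5S RNA bind MDM2 and stabilise p53, differed by 0.13 and 0.07 with SM08502, and 0.19 and 0.14 with the combination. RPS6, the substrate of the S6 kinases, differed by -0.07 and -0.08, and RPSA, also known as a laminin receptor, by 0.02 and 0.00. The median with SM08502 was 0.13 for the large and 0.10 for the small subunit, a difference that was not tested.

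Genes outside the rule that also encode ribosomal proteins included FAU (source of RPS30), RPL36AL, RPS27L and RPL22L1. None of these 4 passed with SM08502 (limma, 2 at an unadjusted p under 0.05), and FAU (0.28), RPL36AL (0.37) and RPS27L (0.35) passed with the combination. The RPS27L call was lost when both shallow libraries were left out (0.19, limma adjusted p = 0.220), and the RPL36AL call without Ishikawa vehicle replicate 2 (0.26, adjusted p = 0.0687) or Ishikawa-S33Y combination replicate 1 (0.25, adjusted p = 0.0652). Of 78 mitochondrial ribosomal protein genes, 44 rose and 9 fell with SM08502, of 57 genes of ribosome assembly and polymerase I transcription 26 rose and 3 fell, and of 20 other TOP genes, mostly translation factors and with FAU among them, 9 rose and 5 fell. Their medians were 0.22, 0.15 and 0.18 (log2). Over all genes in the same comparison 22.6% were higher and 15.8% lower, with a median of 0.05.

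Levels of the paralogues differed between lines on vehicle. RPL39L, a paralogue of RPL39 known from testis and tumours, lay at 53.7 and 51.7 CPM on vehicle for Ishikawa, 19.5 and 20.6 for Ishikawa-S33Y, 25.7 and 23.0 for SNGM, and 47.0 and 46.5 for HEC265. Ishikawa and HEC265 lay above the others with no overlap. Against Ishikawa it differed by -1.35 ± 0.16 (SE, log2) in Ishikawa-S33Y (limma, adjusted p = 5.71e-07), and it was 1.18 higher in HEC265 than in Ishikawa-S33Y (adjusted p = 1.15e-06). RPL39 itself lay at 773 and 475, 391 and 481, 428 and 373, and 206 and 213 CPM, so that the reads of RPL39 per read of RPL39L were 4.39 and 4.58 in HEC265 and 9.19 to 23.3 in the vehicle libraries of the other lines. With SM08502 RPL39L rose for Ishikawa-S33Y, to 31.9 and 33.2 CPM (0.67 ± 0.16, limma adjusted p = 0.00285), and did so under all 14 alternatives. It measured 23.1 and 26.1 CPM with SM08502 in SNGM, overlapping vehicle (0.02), and 41.7 and 43.2 in HEC265, both below vehicle (-0.14), and neither difference passed.

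RPL26L1, the near copy of RPL26, had values of both signs among lines. On vehicle it lay at 50.1 and 44.5 CPM for Ishikawa, 30.3 and 31.4 for Ishikawa-S33Y, 29.8 and 21.9 for SNGM, and 27.1 and 30.2 for HEC265. With the combination it lay at 67.3 and 72.0, 21.6 and 21.7, 34.3 and 24.3, and 40.9 and 44.4 CPM. It was higher in Ishikawa (0.55) and HEC265 (0.56) and lower in Ishikawa-S33Y (-0.49; limma, adjusted p = 0.0458, 0.0469 and 0.0477), and each of these calls was lost without any 1 of its 4 libraries (adjusted p = 0.0850 to 0.231, 0.107 to 0.246 and 0.119 to 0.163). Whether its response to the combination differed among lines was not tested. The test given above was for SM08502 alone, and RPL26L1 did not pass it in the main fit. RPL22L1 differed by -1.14 (log2) between Ishikawa-S33Y and Ishikawa, its level being lower in Ishikawa-S33Y (limma, adjusted p = 4.92e-04), and was 0.90 higher in HEC265 than in Ishikawa-S33Y (adjusted p = 0.00277). RPL22 was 0.42 higher in Ishikawa-S33Y than in Ishikawa (adjusted p = 0.00180), or 0.25 (adjusted p = 0.0763) without Ishikawa vehicle replicate 2.

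Other pairs were uneven too. RPS27L, a p53 target gene, lay at 35.9 and 39.5 CPM on vehicle for Ishikawa, 29.2 and 27.6 for Ishikawa-S33Y, 178 and 155 for SNGM, and 87.2 and 86.7 for HEC265, while RPS27 lay at 129 and 82.4, 90.2 and 100.2, 35.9 and 31.6, and 35.1 and 34.0. The paralogue was highest in SNGM: RPS27L was 2.50 higher (log2) in SNGM than in Ishikawa-S33Y and RPS27 differed by -1.47 (limma, adjusted p = 1.20e-05). RPL7L1, a nucleolar relative of RPL7 that acts in large-subunit assembly, was 0.53 higher for HEC265 than for Ishikawa-S33Y (limma, adjusted p = 0.0488), a call lost without any 1 of its 4 libraries (adjusted p = 0.111 to 0.151), and lower for SNGM than for HEC265 (-0.87, adjusted p = 0.00240). RPL3L, the striated-muscle form of RPL3, stayed at 1.34 to 4.92 CPM in all libraries. RPL10L, a testis form of RPL10, was at 0 to 0.185 CPM and below the filter.

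On vehicle most genes differed among lines, members included: a limma F test called 75 of 81 members, near the background of 86.9% of all genes. In Ishikawa-S33Y against Ishikawa, 33 members were lower and 1, RPL22, was higher, against 48.3% of all genes called (20.0% higher and 28.2% lower), with a median of -0.40 (log2) against -0.05. The count was 17 without Ishikawa vehicle replicate 1 and 19 without Ishikawa-S33Y vehicle replicate 1. RPS18 and RPS3A of the small subunit were the lowest after RPL39L: RPS18 went from 1639 and 1252 to 538 and 639 CPM (-1.29 ± 0.24, limma adjusted p = 1.78e-04) and RPS3A from 1403 and 1558 to 628 and 658 (-1.20 ± 0.24, adjusted p = 3.53e-04). Beside these, 36 of the 52 long-mRNA genes were higher and 3 lower, with a median of 0.73, and of 78 mitochondrial ribosomal protein genes 52 were lower and 2 higher. RNA input also differed between these 2 lines, and neither it nor the genotype can be told apart from the line.

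Many members were lower in SNGM and in HEC265 than in Ishikawa-S33Y, whose vehicle libraries serve both comparisons. In SNGM 34 members were lower and 1 higher (60.8% of all genes called, 28.1% higher and 32.7% lower, median member -0.34), and in HEC265 37 were lower and 3 higher (58.0% of all genes called, 26.6% higher and 31.4% lower, median member -0.40). Re-centring each sample on its median moved the median of all genes by 0.11 in SNGM and 0.19 in HEC265. Relative to the median of all genes the median member was -0.29 and -0.32, values that re-centring cannot change, and with re-centring the calls became 24 lower and 1 higher in SNGM and 17 lower and 5 higher in HEC265. Without Ishikawa-S33Y vehicle replicate 2 or HEC265 vehicle replicate 1 the HEC265 count was 24 and 26. RPL41, the shortest ribosomal protein, went from 1614 and 1623 CPM for Ishikawa-S33Y to 435 and 324 for SNGM (-2.11 ± 0.25, limma adjusted p = 1.69e-07) and lay at 734 and 804 for HEC265.

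RPS28, of the small-subunit exit region, differed by -1.47 (log2; limma, adjusted p = 1.66e-06) in SNGM, at 144 and 129 CPM, against 386 and 372 in Ishikawa-S33Y. In HEC265 the X-linked RPS4X was higher, at 764 and 810 CPM against 412 and 426 (0.91 ± 0.16, limma adjusted p = 5.40e-05), and RPL10, also X-linked, was lower, at 295 and 284 against 618 and 616 (-1.09 ± 0.12, adjusted p = 1.18e-07). RPL28, a large-subunit protein, was lower there at 130 and 129 CPM against 259 and 292 (-1.08). Between SNGM and HEC265 the family was mixed, with 10 members higher and 16 lower in SNGM (54.9% of all genes called, 28.9% higher and 26.0% lower, median member -0.06). RPL39 (0.93) and RPL10 (0.89) were higher in SNGM and RPL41 (-1.03) was lower.

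**Figure D5:**
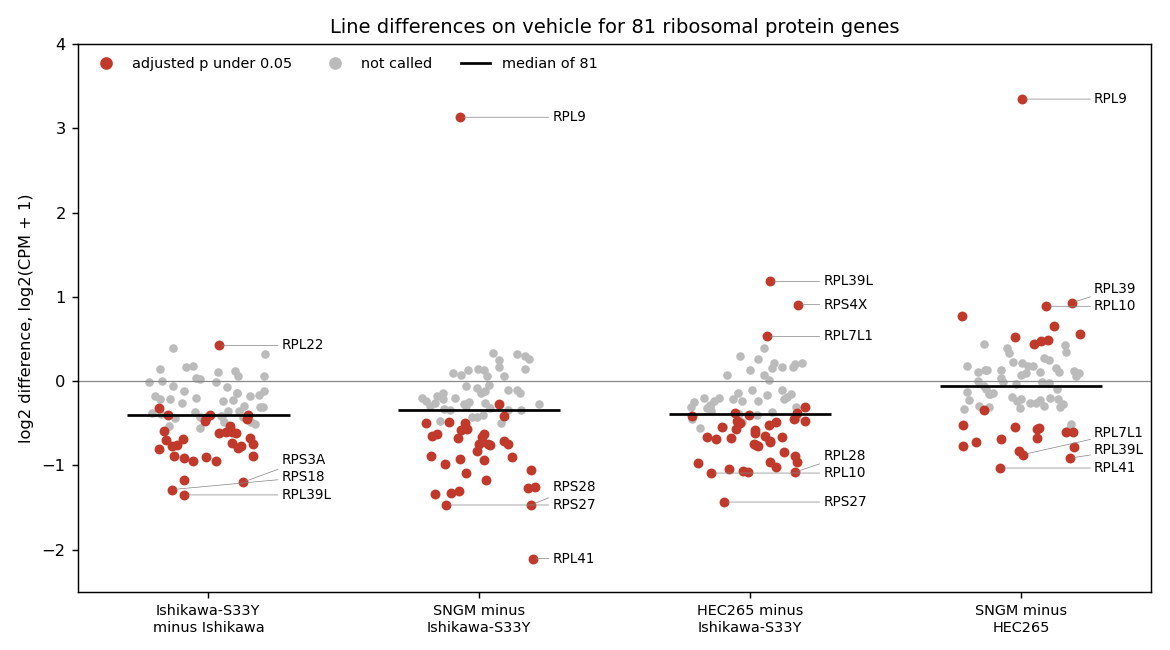
Log2 difference between lines on vehicle for each of the 81 members; red points passed an adjusted p under 0.05, grey points did not, bars are medians. Medians lie at -0.40, -0.34, -0.40 and -0.06, and RPL9 stands apart at 3.13 and 3.35 in the comparisons with SNGM, or 0.21 and 0.67 with the reads of its pseudogenes added.

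RPL9 was the member with the largest line difference, and its reads could not be assigned with certainty. It lay at 400.2 and 332 CPM for SNGM, 38.0 and 43.7 for Ishikawa-S33Y, 35.8 and 34.1 for HEC265, and 75.0 and 77.5 for Ishikawa, and was 3.13 ± 0.23 higher for SNGM than for Ishikawa-S33Y (limma, adjusted p = 7.17e-11). Reads listed under its pseudogenes, almost all under RPL9P9, averaged 352 CPM for SNGM, 578 for Ishikawa-S33Y, 414 for HEC265 and 1106 for Ishikawa vehicle libraries. With these added, RPL9 was 0.21 higher in SNGM than in Ishikawa-S33Y (limma, adjusted p = 0.420) and 0.67 higher than in HEC265 (adjusted p = 0.0119), in place of 3.35 without them. Of 1014 ribosomal pseudogenes of the family in the table, 29 averaged at least 1 CPM and 7 at least 10 CPM. Pseudogenes held over 10% of the joint reads for RPL9 (83.3%), RPL23A (49.3%) and RPL41 (20.1%), and the RPL41 difference between SNGM and Ishikawa-S33Y was -2.05 with them. With pseudogene reads added, the numbers of calls with SM08502 and the combination were as before, except for the combination in SNGM, with 4 in place of 3.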

How the data were processed

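The authors deposited 1 table of log10(CPM + 1), the unit checked on the values: the back-transformed CPM gave whole reads for 100% of values (within 0.01 of a read). Per the submitters' processing notes, bcl2fastq, STAR, kallisto and GRCh38 were used, with no roles or versions; annotation and strand of counting are not given in the sources used here. The design had assumed log2 values, so values were converted to CPM and then to log2(CPM + 1), a scale that understates changes of low genes. All 32 libraries and 17011 genes entered 1 fit with a mean for each group and an intensity trend (limma 3.58.1 under R 4.3.3). Tests were two-sided, adjusted over all genes by Benjamini-Hochberg and called at 0.05. Means over lines weight the 4 lines equally. Against the family median, each library's median of the members was subtracted first. Named genes were the paralogue pairs, members with special roles, the largest called differences per comparison among members averaging at least 10 CPM, and the smallest p for differing responses. RPL15, RPL24, RPL29, RPL27A, RPL38, RPL19 and RPL23A, and the single-line values of RPS23, RPS19, RPL10, RPS12, RPL39L and RPL26L1, were chosen after their values were seen. Members and lists were chosen with earlier results of these data known. Start-site sequences are RefSeq's; 17 members had no entry there. The procedure was tested on simulated data.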

Additional observations from a re-analysis of the deposited data

How the results depend on the processing

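Counts of members past the threshold moved with the setting. Shares of all genes called were taken in the main fit only, so the counts below have no background beside them. Quantile normalization gave 28 for SM08502 in the mean over lines, and 5, 11 and 7 in Ishikawa (4 higher), Ishikawa-S33Y and HEC265; for the combination it gave 35 in the mean and 13, 18, 7 and 8 by line; for SNGM against Ishikawa-S33Y 54 (51 lower), for HEC265 against Ishikawa-S33Y 58, and 2 for responses that differed among lines. Re-centring gave 4, 1 and 12 for SM08502 in Ishikawa-S33Y, SNGM and the combination mean, 3 (2 higher, 1 lower) for the combination in HEC265, and 22 for both Ishikawa-S33Y against Ishikawa and HEC265 against Ishikawa-S33Y. Without the filter on low values the counts were 1 for SM08502 in Ishikawa and 3 for the combination in Ishikawa and in HEC265. Fits on the compared lines alone gave 0, 18, 1 and 37 for SM08502, 0, 30, 1 and 39 for the combination, and 21 and 67 for Ishikawa-S33Y against Ishikawa and HEC265 against Ishikawa-S33Y. Chosen after seeing the data, voom with library totals gave 5 for SM08502 in SNGM, 11 for the combination in Ishikawa, 2 for differing responses and 19 against the family median, leaving out both shallow libraries gave 10 for the combination in Ishikawa and 2 for responses that differed among lines, and leaving out Ishikawa gave 22 against the family median. The planned voom fit with TMM scaling factors is not reported, since edgeR, which supplies those factors, was not applied to a table deposited as logarithms, and the voom fit above used library totals instead; an exploratory run of it called fewer members for both SM08502 and the combination. The cause of these shifts was not tested.

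Leaving out 1 library at a time gave 10 to 25 for SM08502 in the mean, 0 to 23 in Ishikawa, 4 to 4 in Ishikawa-S33Y, 1 to 4 in SNGM and 2 to 2 in HEC265; 14 to 30, 1 to 11, 7 to 8, 1 to 8 and 2 to 2 for the combination; 0 to 2 for paclitaxel in Ishikawa; 17 to 28, 25 to 37, 24 to 29 and 18 to 21 for the line comparisons in the order of the text; 0 to 3 for differing responses; and 10 to 13 against the family median. Same-numbered replicates deviated with correlations of -0.65 to 0.86 (8 of 24 pairs over 0.1), with both signs within a line, so the numbers do not pair the samples consistently. Large values of either sign still show deviations shared across treatments. In SNGM the correlation was 0.84 for vehicle with paclitaxel and -0.65 for paclitaxel with the combination. The main fit takes all samples as independent. The replicate block gave 16 for SM08502 and 26 for the combination in the mean, 6 for the combination in SNGM and 2 for differing responses.

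Log2 differences that turned sign were all of genes not past the threshold. For RPL22 in HEC265 against Ishikawa-S33Y the value was -0.19 with quantile normalization and -0.052 on CPM without PLCG2, RIMBP3C and mitochondrial genes. Leaving out 1 library gave, for SM08502 in the mean over lines, RPL39 -0.019 to 0.20, RPL7L1 -0.061 to 0.12, RPLP1 -0.084 to 0.11, RPLP2 -0.053 to 0.085, RPSA -0.078 to 0.11, RPS6 -0.16 to 0.014 and RPL11 -0.014 to 0.15. For the combination it gave RPL3L -0.085 to 0.16, RPL7L1 -0.11 to 0.016 and RPSA -0.053 to 0.051. In single lines it gave RPL22L1 -0.22 to 0.43, RPS12 -0.55 to 0.046 and RPL39L -0.15 to 0.42 for SM08502 in Ishikawa, RPL39L -0.070 to 0.10 for SM08502 in SNGM and RPL26L1 -0.072 to 0.41 for the combination in SNGM. Re-centring gave -0.0028 for RPLP1 and -4.7e-05 for RPSA with SM08502. Quantile normalization gave -0.046 for RPL3L and 0.031 for RPSA with the combination. Without Ishikawa, RPLP1 was -0.10, RPLP2 -0.051 and RPL11 -0.0052 with SM08502, and RPL7L1 0.10 with the combination.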
